A study of Mus musculus with 32 samples.

Results

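The comparison described here is that of AF9-experienced with naive haematopoietic stem and progenitor cells (HSPCs) after an injection of PBS, in chromatin accessibility. Its members are the 8 peak lists whose labels say PBS, 4 AF9-experienced and 4 naive, of 16 peak lists in the series. The remaining 8 lists come from mice given LPS, a bacterial lipopolysaccharide, and are used to estimate the spread and for a test of whether the difference after PBS differs from that after LPS. The question is whether wild-type HSPCs that shared a marrow with MLL-AF9 cells keep a difference in open chromatin after the oncogene has been switched off.

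ATAC-seq marks open chromatin: a transposase cuts DNA that is not wrapped in nucleosomes, and a peak is a stretch where cuts pile up. Most peaks lie at promoters, where transcription starts, or at enhancers, which lie further away and carry binding sites for the transcription factors that give a cell its identity. MLL-AF9 is a fusion of the histone methyltransferase MLL with AF9, a reader of acylated histones that recruits elongation factors, and it drives acute myeloid leukaemia with high HOXA and MEIS1 expression. HSPCs of the marrow respond to infection and to neighbouring leukaemia cells, and inflammatory exposure can leave lasting changes at their enhancers.

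All recipients were lethally irradiated C57BL/6J mice carrying CD45.2. AF9-experienced mice received 200000 whole marrow cells of iMLL-AF9 mice (CD45.1, homozygous for the doxycycline-inducible hMLL-AF9 allele and for the rtTA transactivator) together with 800000 wild-type CD45.1+/2+ marrow cells. Naive mice received marrow that was homozygous for rtTA but null for hMLL-AF9 in place of the iMLL-AF9 marrow, with the same wild-type cells. Both kinds of mouse were given doxycycline for 5 weeks, starting 6 to 8 weeks after transplant, then had it withdrawn for 4 weeks, and were killed 24 hours after the injection. The cells sorted were the wild-type CD45.1+/2+ donor HSPCs (lineage-negative, cKit-positive, Sca1-positive), so in both groups the sequenced cells carried no MLL-AF9 allele and had been exposed to irradiated hosts, doxycycline and rtTA marrow. The ages and sexes of the mice, and whether marrow of several mice was pooled, are not given in the sources used here. The labels count the samples as biological replicates, so p-values measure the spread between these samples.

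The PBS lists held 19448, 63241, 80216 and 78184 peaks in naive replicates 1 to 4, and 25685, 88505, 88816 and 84229 peaks in AF9-experienced replicates 1 to 4. Replicate 1 of each group stood apart, with far fewer peaks than its group's other lists and a median fold enrichment of 5.07 and 5.34 against 13.9 to 19.4 in the other 6 lists at equal list length. Peak lists carry no read totals, so the depth is unknown and values have no interval for counting error. Each region was therefore compared by its percentile rank within a list, where 100 is the strongest peak by the authors' -log10 p and 0 means no peak among those ranked. A region can change rank because others do, so differences are in percentile points and not in accessibility. The sorted cells are a mixture, and a change in its make-up cannot be told apart from a change within cells.

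The gate was checked against marker genes by peaks at either end of their gene models in equal-length lists. Of 24 genes of HSC identity, 13 had such a peak in all 8 PBS lists, among them Mecom, Hlf, Meis1 and Kit, and their mean rank over the whole list was 35.1 in naive and 36.2 in AF9-experienced lists. Gene ends of Ly6a, which encodes the sorting antigen Sca1, and of Gata2, Lmo2, Fli1, Fgd5 and Tek held no peak in any of the 8. Of 15 neutrophil granule genes, 0 had a gene-end peak in all 8 lists and 12 had one in none. The summed level of the granule genes, as a mean rank, ran from 0 to 1.73 in naive lists and from 0 to 0.328 in AF9-experienced lists. Monocyte, mature lymphocyte and mast cell lists had 1 gene each with a peak in all 8, of 12, 16 and 12 genes, and the endothelial and stromal list had 2 of 13. Megakaryocyte and erythroid genes were open at 10 of 17 gene ends in all 8 lists, with group means of 37.9 and 40.0. Only autosomal peaks and gene models were used, so an X-linked gene such as Gata1 in this list counts as without a peak.

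At equal list length, the 19100 strongest autosomal peaks of each list, no region was called between AF9-experienced and naive HSPCs. Of 23554 regions tested, linked to 12330 protein-coding genes, 0 were higher (0% called) and 0 were lower (0% called) at an adjusted p under 0.05 in limma, and the smallest adjusted p was 1. At an unadjusted p under 0.05, 422 regions were higher (1.79%) and 331 lower (1.41%). All 4 AF9-experienced lists ranked above all 4 naive lists in 247 regions (1.05%) and below them in 242 (1.03%). The median absolute difference was 3.31 percentile points, and 193 regions (0.819%) differed by more than 20. The 95% interval of a difference reached 13.3 points to either side at the median, and 61.5% of regions had an interval that lay wholly within 20 points of 0. In all 8 PBS lists, 12270 of the tested regions held a peak. With limma's library weights, which gave replicate 1 of each group less weight, 13 regions were called higher and 15 lower, among them those of Nfic, Tdrd3, Arntl and Shisa8 described next.

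The regions with an unadjusted p under 0.05 differed in where they lay, which is given as a description of a set picked by p. Of those higher in AF9-experienced lists 32.0% lay within 1 kb of an end of a gene model, against 54.1% of those lower and 46.7% of all tested regions. The higher set had a median width of 858.5 bp and the lower set one of 1061 bp, where all tested regions had 965 bp. Gene-start peaks made up 41.1% ± 0.763 of naive and 40.7% ± 0.749 of AF9-experienced equal-length lists (SD, n = 4, exact two-sided permutation p = 0.429, adjusted p = 0.880).

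The region with the smallest p lay inside Nfic, which encodes a transcription factor of the nuclear factor I family (chr10:81413663-81414513, GRCm38). It ranked at 0, 3.32, 8.30 and 0 in naive replicates 1 to 4 and at 35.3, 35.3, 44.8 and 26.9 in AF9-experienced replicates 1 to 4. The groups did not overlap, and naive lists 1 and 4 had no peak there among the 19100, though list 4 held one further down its full list. The difference was 32.7 points with a standard error of 6.79 and a 95% interval of 18.6 to 46.7 (adjusted p = 1).

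The next regions with higher ranks, which were not called either, lay by a growth factor gene and inside a Notch pathway gene. A region 13 kb from Vegfa, the main growth factor for blood vessels, ranked at 0, 2.15, 10.8 and 0 in naive lists and at 39.3, 23.6, 14.1 and 25.6 in AF9-experienced lists (chr17:46045402-46046254, 22.4 points, standard error 5.21). Inside Maml3, a coactivator of Notch receptors, the ranks were 0, 0, 13.9 and 4.49 against 27.8, 15.1, 38.9 and 18.1 (chr3:52007349-52008233, 20.4 points, standard error 5.39). Inside Trim9, an E3 ubiquitin ligase gene, they were 0, 0, 11.4 and 4.69 against 49.5, 12, 17.4 and 32.7 (chr12:70251062-70251974, 23.9 points, standard error 6.66). In each of these, every AF9-experienced list was above every naive list, the naive list nearest to them was replicate 3, and naive list 1 was at 0. All 4 regions were present in 3 of 4 full naive lists and in all 4 full AF9-experienced lists. With a 50% overlap rule for merging peaks the difference was 23.8 points inside Nfic, 12.6 near Vegfa, 20.4 inside Maml3 and 11.5 inside Trim9. Ranked by fold enrichment it was 20.3 inside Maml3 and 37.4 inside Trim9. The regions of Nfic and Vegfa have no value under that ranking, so they were not checked by it. None of the 4 regions has a value in the shorter lists used for Tdrd3 below.

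**Figure D1:**
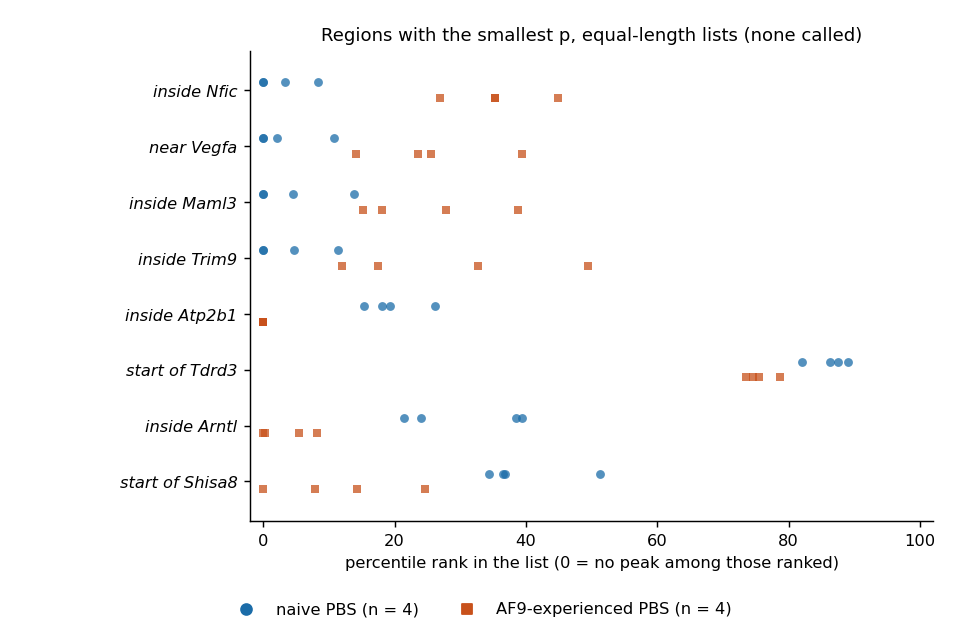
Percentile rank (horizontal axis, 0 to 100, where 0 is no peak among the 19100 ranked) in each of 4 naive PBS lists (circles) and 4 AF9-experienced PBS lists (squares) for the 8 regions with the smallest p, 4 in each direction. The groups do not overlap in any of the 8, which were picked for their small p, and none passed an adjusted p under 0.05.

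Among regions with lower ranks in AF9-experienced lists, the smallest p was at a region inside Atp2b1, a calcium pump of the plasma membrane (chr10:98966546-98967294). It ranked at 26.1, 19.4, 18.0 and 15.4 in naive lists and at 0 in all 4 AF9-experienced lists, a difference of -19.7 points with a standard error of 5.09. The peak was still in all 4 full AF9-experienced lists, below the 19100 strongest. Inside Arntl, which encodes the clock factor BMAL1, naive lists stood at 21.5, 38.5, 39.4 and 24.0 and AF9-experienced lists at 0, 0.225, 8.21 and 5.40 (chr7:113294484-113295841, -27.4 points, standard error 7.20). Both regions kept the groups apart, with AF9-experienced lists at or near the bottom of the ranks. Ranked by fold enrichment the difference was -31.4 points inside Atp2b1 and -6.87 inside Arntl (limma, unadjusted p = 0.0211 and 0.267).

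The other 2 regions lay at gene starts. The start of Tdrd3, which encodes a tudor protein that binds methylated arginine on histones, ranked at 82.0, 89.0, 86.2 and 87.5 in naive lists and at 74.5, 75.5, 73.6 and 78.7 in AF9-experienced lists (chr14:87415798-87417341, -10.6 points, standard error 2.74). This is a strong promoter peak in every list, with naive lists in a band above the AF9-experienced ones. The start of Shisa8, of a family of transmembrane proteins, ranked at 51.3, 34.3, 36.5 and 36.8 against 24.6, 7.95, 14.3 and 0 (chr15:82211712-82212979, -28.0 points, standard error 7.43). Replicate 1 was the highest of its group on both sides, and the groups are apart with and without it. At Shisa8 the difference was -16.4 points ranked by fold enrichment and -15.2 with the 50% overlap rule. At Tdrd3 it was -15.4 ranked by fold enrichment (limma, unadjusted p = 0.362). In lists of 9550 peaks the Tdrd3 difference was -21.3, the same distance in places, as 1 place spans more points in a shorter list.

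The start sequences below are those of Tdrd3 and Shisa8, the only gene starts among the 8 leading regions at equal length, and of Mki67, Irf8 and Tbp, whose start regions had the smallest p in the cell cycle, myeloid progenitor and housekeeping lists and are described further on. They run 5′ to 3′ from 250 bases before to 50 after the RefSeq start (GRCm38.p6) and were chosen after the values were seen. Capitals mark the GC box (GGGCGG), the CCAAT box (CCAAT), the TATA box (TATAAA), the cell cycle element CHR (TTTGAA) and the STAT site (TTCNNNGAA), searched on both strands; the CCAAT box and GC box matches may adjoin or overlap one another.
Tdrd3: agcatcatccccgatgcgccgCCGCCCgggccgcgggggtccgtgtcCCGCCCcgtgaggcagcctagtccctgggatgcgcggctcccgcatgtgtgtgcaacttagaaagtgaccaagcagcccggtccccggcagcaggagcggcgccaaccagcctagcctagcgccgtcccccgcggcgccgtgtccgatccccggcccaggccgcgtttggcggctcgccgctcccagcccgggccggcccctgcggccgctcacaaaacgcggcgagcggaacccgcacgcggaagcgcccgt
Shisa8: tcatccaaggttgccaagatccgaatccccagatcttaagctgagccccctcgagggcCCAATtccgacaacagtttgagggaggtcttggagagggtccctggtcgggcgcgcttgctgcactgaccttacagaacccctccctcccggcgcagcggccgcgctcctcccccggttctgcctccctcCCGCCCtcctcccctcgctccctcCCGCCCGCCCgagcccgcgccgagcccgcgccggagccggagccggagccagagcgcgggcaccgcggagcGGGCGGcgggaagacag
Mki67: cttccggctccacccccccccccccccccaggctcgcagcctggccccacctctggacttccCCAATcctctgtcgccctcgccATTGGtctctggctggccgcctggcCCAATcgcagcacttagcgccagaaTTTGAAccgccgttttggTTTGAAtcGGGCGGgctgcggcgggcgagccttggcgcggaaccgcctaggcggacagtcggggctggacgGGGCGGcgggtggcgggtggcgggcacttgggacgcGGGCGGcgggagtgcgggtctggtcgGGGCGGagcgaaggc
Irf8: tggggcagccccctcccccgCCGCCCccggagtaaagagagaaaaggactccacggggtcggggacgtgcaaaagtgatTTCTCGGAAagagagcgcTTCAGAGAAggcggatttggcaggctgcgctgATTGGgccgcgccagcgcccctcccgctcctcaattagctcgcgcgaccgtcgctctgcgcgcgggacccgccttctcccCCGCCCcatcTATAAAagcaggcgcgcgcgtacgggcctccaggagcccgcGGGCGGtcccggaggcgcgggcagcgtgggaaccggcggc
Tbp: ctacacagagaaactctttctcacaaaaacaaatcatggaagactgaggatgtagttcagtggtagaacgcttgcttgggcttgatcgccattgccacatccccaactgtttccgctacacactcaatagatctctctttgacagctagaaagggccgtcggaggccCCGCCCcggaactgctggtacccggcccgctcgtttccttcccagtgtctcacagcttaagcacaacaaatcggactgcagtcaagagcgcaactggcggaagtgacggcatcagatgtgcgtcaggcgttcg
The windows lie at chr14:87416333-87416632 (plus strand) for Tdrd3, chr15:82212766-82213065 (minus) for Shisa8, chr7:135716330-135716629 (minus) for Mki67, chr8:120736108-120736407 (plus) for Irf8 and chr17:15499638-15499937 (plus) for Tbp. The Shisa8 window lies within its region for 214 of 300 bases, the others for all 300. The GC content was 75% for Tdrd3, 71.3% for Shisa8, 72.7% for Mki67, 70% for Irf8 and 53.3% for Tbp. GC boxes numbered 2 in Tdrd3, 4 in Shisa8, 4 in Mki67, 3 in Irf8 and 1 in Tbp, and 36.0% of all 31396 mouse start windows held at least 1. Mki67 held 3 CCAAT boxes and 2 CHR elements, the latter at 116 and 98 bases before the start, where 37.3% and 17.6% of windows hold the motif. Irf8 held 1 CCAAT box, 1 TATA box at 31 bases before the start and 2 STAT sites, and 13.6% and 8.35% of windows hold a TATA box and a STAT site. Neither an AP-1 site (TGANTCA, in 7.84% of windows) nor an E-box (CACGTG, in 7.14%) was found in the 5 windows. The 2 starts with lower AF9-experienced ranks among the leading regions shared the GC box and no other motif searched.

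Regions with a peak in every list of one group and in no list of the other were few at this length. There were 11 with a peak in all 4 AF9-experienced and no naive list and 6 the other way round. The 11 lay at or near Uck2, Ier5, Samsn1, Unc119, Abca4, Zfp938, Tmem132b, Il18rap, Ric8b, Rad9a and Cep70. All 11 were also in 3 of 4 full naive lists, that is, in all but naive replicate 1, whose full autosomal list is the 19100 peaks. The start of Unc119, a lipid-binding trafficking protein, ranked at 39.5, 28.9, 7.98 and 11.7 in AF9-experienced lists, and that of Il18rap, a subunit of the interleukin 18 receptor, at 18.8, 2.08, 11.4 and 6.73. The 6 of the opposite kind lay inside Atp2b1, Evl and Hspbp1, at the start of Cdkal1, 26.9 kb from Itga4 and in a stretch with no gene model within 50 kb. The start of Cdkal1, a tRNA-modifying enzyme, ranked at 43.8, 27.2, 11 and 5.70 in naive lists. The region near Itga4, an integrin that holds HSPCs in the marrow, ranked at 37.6, 21.8, 0.157 and 18.6. Each of the 6 was in at least 3 full AF9-experienced lists.

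Without both replicate 1 lists, ranks could be compared over 59609 peaks, 3 lists a side, for which another short list (naive LPS replicate 3) was left out as well. No region was called there either: of 70017 tested, 0 were higher (0% called) and 0 lower (0% called), with a smallest adjusted p of 0.0741, that of a region inside Nedd4. At an unadjusted p under 0.05, 1153 regions were higher (1.65%) and 1022 lower (1.46%). All AF9-experienced lists were above all naive lists in 3554 regions (5.08%) and below in 3821 (5.46%), so the split was close to even. Some other settings did make calls at this depth. When regions were fitted with the PBS lists alone, 15 were called higher and 0 lower, and limma's library weights gave 92 and 47. Ranking by fold enrichment and fixed 500-bp windows gave 16 and 1 each, and a 50% overlap rule 36 and 135. Of the higher calls, 12 of 15, 40 of 92, 7 of 16 by fold enrichment and 13 of 36 were under 200 bp. A region needed a peak in 3 lists to be tested, which 1 group alone can supply. Calls of that kind were not counted, so these calls are given as a description. The 8 leading regions of the equal-length comparison kept their sign in the deeper fit, with smaller differences on the longer ranking. They were 10.4 points inside Nfic (standard error 3.76, adjusted p = 1), 5.87 near Vegfa (6.75), 5.98 inside Maml3 (5.48) and 5.30 inside Trim9 (4.50). The lower ones were -7.22 inside Atp2b1 (3.68), -9.41 inside Arntl (4.01), -3.74 at the start of Tdrd3 (0.906) and -9.32 at that of Shisa8 (5.55), again with standard errors in brackets.

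A region was tested if at least 3 lists held a peak in it, and some leading regions of the deeper fit reached that number only through the group in which they rank high. For Nedd4, Poc5, Setd3 and Tas2r126 no list outside that group's 3 held a ranked peak, for Terf2 1 did, and for Abca1 and Zfp503 2 did. These 7 had to differ to be tested, so their ranks are given as a description with no test. In all, 78 tested regions had ranked peaks only in AF9-experienced PBS lists and 75 only in naive PBS lists.

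The smallest p of the deeper fit was at a 144-bp region inside Nedd4, an E3 ubiquitin ligase gene (chr9:72734078-72734221). It ranked at 0 in naive replicates 2 to 4 and at 48.0, 50.2 and 46.8 in AF9-experienced replicates 2 to 4, a difference of 48.3 points. The AF9-experienced peaks all began at base 72734078, had widths of 144, 140 and 140 bp and a fold enrichment of 18.2, 16.1 and 15.4, the authors' own value of each peak, which is not scaled between lists. None of the other 13 lists of the series held a peak in this region, AF9-experienced PBS replicate 1 and all 8 LPS lists included.

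A region 12.4 kb from Poc5, a centriole gene, showed the same form (chr13:96375643-96375826). It ranked at 0 in the 3 naive lists and at 44.0, 37.8 and 33.0 in the AF9-experienced lists (38.3 points), from peaks of 184, 143 and 156 bp. So did one 8.1 kb from Terf2, a telomere-binding protein, at 0 against 51.3, 57.0 and 46.0 (chr8:107104646-107104827, 51.4 points), which naive LPS replicate 1 also listed, as a peak of 121 bp. A wider region inside Phactr1, a regulator of actin and protein phosphatase 1, ranked at 1.81, 0 and 0.405 against 43.0, 37.8 and 31.6 (chr13:42883887-42884441, 36.7 points, standard error 6.12). It was 555 bp long and, unlike the other 3, was in all 3 full naive lists. Its peaks were 221, 408 and 417 bp long in naive lists and 509, 464 and 483 bp in AF9-experienced lists. The Phactr1 region was not called in this fit, at an adjusted p of 0.190. It was among the regions called when ranked by fold enrichment (limma, adjusted p = 0.0446), where the lists with a ranked peak were not counted. It was also called with the 50% overlap rule, under which the 221-bp naive peak no longer counts. The region then reached the minimum of 3 lists only through the group in which it ranks high, so that call is no test.

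The 4 leading regions with lower ranks were 327 to 506 bp wide, and 3 of them were still in every full list compared. A region 17.7 kb from Setd3, which methylates histidine in actin, ranked at 23.4, 32.5 and 41.4 in naive lists and at 0 in AF9-experienced lists (chr12:108088210-108088712, -32.5 points). Inside Abca1, the cholesterol exporter, the ranks were 27.7, 28.6 and 34.5 against 0, 5.42 and 0 (chr4:53088888-53089393, -28.5 points). A region 13.4 kb from Zfp503, a zinc finger gene, stood at 31.2, 41 and 17.9 against 0, 0 and 1.04 (chr14:22002959-22003463, -29.7 points). All 3 regions were in the 3 full AF9-experienced lists, mostly below the 59609 ranked peaks. The authors' fold enrichment, not scaled between lists, was 6.59, 10.4 and 11.7 in naive and 7.34, 5.67 and 6.03 in AF9-experienced lists near Setd3. Inside Abca1 it was 7.06, 10.1 and 10.2 against 7.61, 6.78 and 6.49, so the groups overlapped at both regions. Near Zfp503 it was 7.68, 12.3 and 7.62 against 6.56, 5.97 and 6.64, with no overlap. The region near the start of Tas2r126, a bitter taste receptor gene, ranked at 31.2, 17.3 and 23.0 against 0 and was in 1 full AF9-experienced list (chr6:42433524-42433850, -23.8 points).

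**Figure D2:**
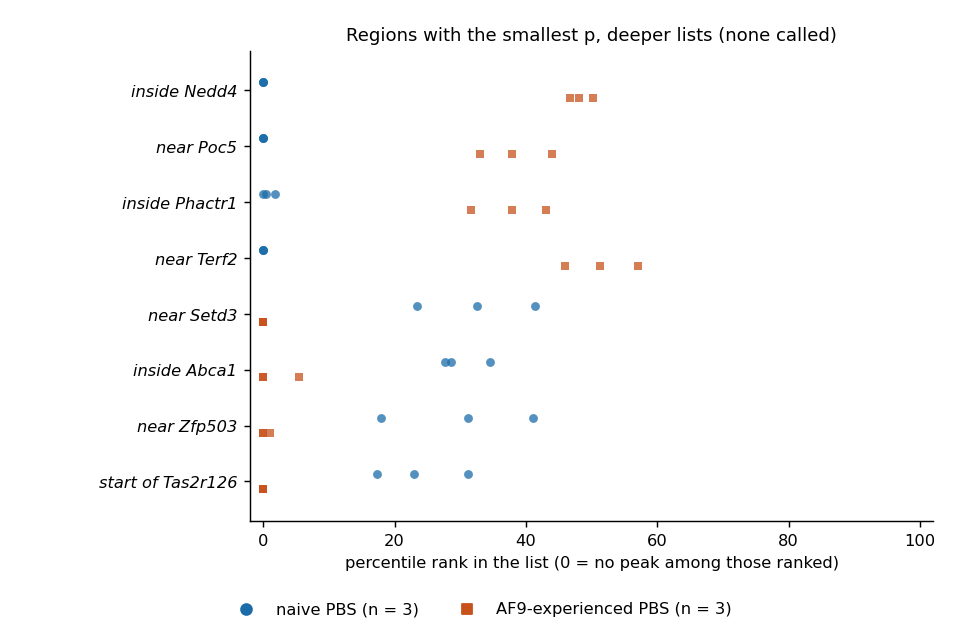
Percentile rank among the 59609 strongest peaks (horizontal axis) in 3 naive PBS lists (circles) and 3 AF9-experienced PBS lists (squares), without replicate 1 of either group, for the 8 regions with the smallest p. The regions near or inside Nedd4, Poc5 and Terf2 sit at 0 in all 3 naive lists, those near Setd3 and Tas2r126 at 0 in all 3 AF9-experienced lists, and none was called.

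Widths were then counted in the sets that separate the groups fully, with thresholds of 200 and 300 bp chosen after the data were seen. In the deeper lists 393 regions had a peak in all 3 AF9-experienced and no naive list, and 289 the reverse. The first set had a median width of 280 bp, and 109 of them (27.7%) were under 200 bp. The second had a median of 620 bp and 0 under 200 bp, and all tested regions had a median of 671 bp with 1.37% under 200 bp. Gene ends took 8.65% of the first set, 15.6% of the second and 23.0% of all tested regions. The 109 narrow regions lay on 19 chromosomes, 50 of them inside gene models and 40 outside but within 50 kb.

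The lists themselves differed in how short a peak they held. The shortest peak of naive replicates 2 to 4 was 199, 151 and 153 bp, and that of AF9-experienced replicates 2 to 4 was 139, 132 and 139 bp. Naive replicate 2 listed 110 autosomal peaks under 200 bp, where the other 5 lists held 9153 to 17478. In 161 of the 393 regions (41%) every AF9-experienced peak was shorter than the shortest peak of naive replicate 2, in 29 shorter than that of replicate 3 and in 33 than that of replicate 4. The reverse held for 0 of the 289. Nedd4, Poc5 and Terf2 are among the 109 narrow regions, and the part of peak length limits in their ranks was not tested. Among regions of at least 300 bp, again 0 were called. The leading ones with higher ranks were at Phactr1, inside Wdr75, a ribosome biogenesis gene (0 in naive lists against 38.7, 28.7 and 40.7), at an intergenic region of chromosome 10 and 9.0 kb from Nfic. Apart from Phactr1 these were at 0 in the naive lists and are given as a description with no test. Outside the AF9-experienced PBS lists, the region near Nfic had a peak only in AF9-experienced LPS replicates 1 and 4. It thus reached the minimum of 3 lists only through the group in which it ranks high.

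Full lists showed how far these sets were absences. Of the 393 regions, 8, 116 and 99 had a peak further down in naive replicates 2, 3 and 4, and 226 had one in naive LPS replicate 1. Of the 289, 264, 266 and 248 had one in AF9-experienced replicates 2, 3 and 4. So the regions missing from the deeper AF9-experienced lists were mostly listed further down, while most of those missing from the naive lists were not listed at all. The full AF9-experienced lists were longer, so these counts are not on an equal footing.

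**Figure D3:**
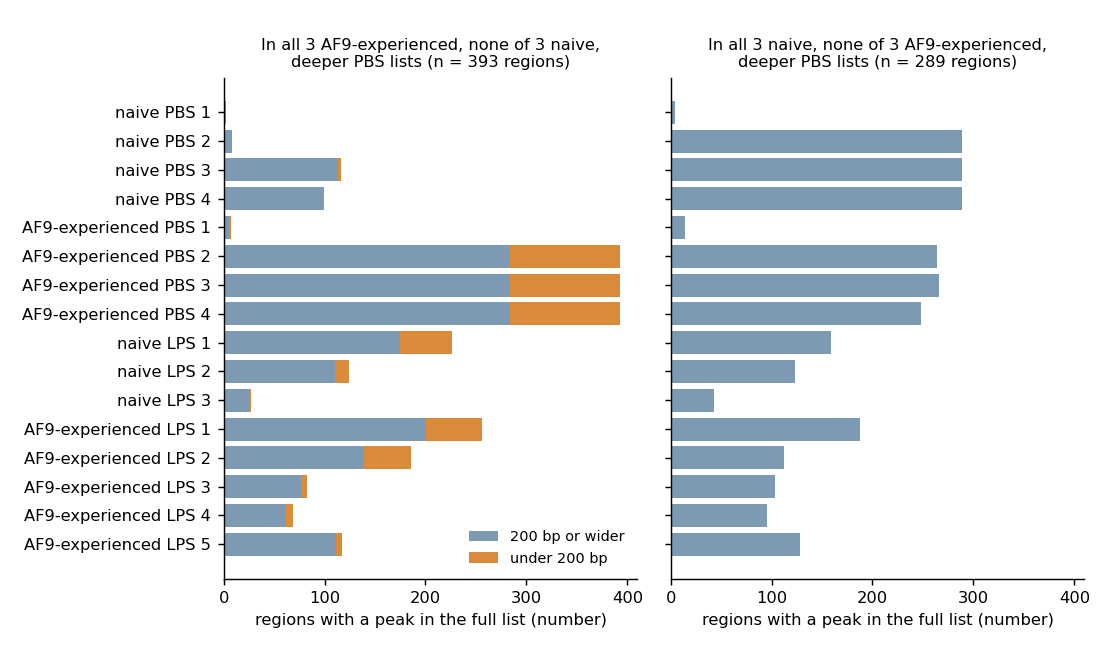
Number of regions with a peak in the full list (horizontal axis) of each of the 16 libraries, for the 393 regions in all 3 AF9-experienced and no naive deeper PBS list (left) and the 289 of the opposite kind (right), split at a width of 200 bp. The 3 lists that define a set reach its total by construction; on the left, naive PBS 2 holds 8 of 393, and on the right AF9-experienced PBS 2 to 4 hold 248 to 266 of 289.

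Over the full lists of all 4 replicates, 10 of 88254 regions were in every AF9-experienced and no naive PBS list, and 0 the reverse, in lists of unequal length. Besides 4 with no gene model within 50 kb, they lay near or inside Pnrc2 (10.2 kb), Dlgap2, Herpud2 (3.0 kb), Nfic (9.0 kb), Sgsm2 and Stk24. The one near Nfic (chr10:81440920-81441403) had a fold enrichment of 2.93, 18.6, 10.7 and 15.3 in AF9-experienced lists 1 to 4. It also ranked at 45.6, 27.2 and 46.0 in the deeper AF9-experienced lists and at 0 in the naive ones, and lies outside the gene model, while the leading equal-length region lies inside it. The one near Herpud2 had a fold enrichment of 4.53, 17.5, 15.9 and 16.8 and was also in 2 of 3 naive LPS lists. That near Pnrc2, a coregulator of nuclear receptors, had 3.19, 5.65, 4.12 and 4.41 and was in no other list of the series. Without replicate 1 of either group the counts were 1420 and 72, of which 269 and 0 were under 200 bp.

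Gene lists were compared region by region; no member of any of the 22 lists was called in either fit (background 0% in each). Over all tested regions the median difference was 0 percentile points at equal length, with quartiles of -2.99 and 3.64. The gene described from a list is the one whose region had the smallest p in it, and some others past the unadjusted threshold are named. All were chosen by the values and are given as not called.

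Regions at HSC identity genes had a median difference of 0.176 points at equal length and of -0.839 in the deeper fit, and those of the MLL-AF9 program one of 0.0327 at equal length. Of 70 regions at HSC identity genes, 2 were higher and 1, at Meis1, was lower at an unadjusted p under 0.05, where all regions had 1.79% and 1.41%. A region inside Mecom, a transcription factor of stem cell self-renewal, ranked at 0, 5.77, 24.5 and 0.0471 in naive lists and at 0, 40.4, 32.7 and 44.3 in AF9-experienced lists (chr3:30015099-30015838, 21.8 points, standard error 8.06). Replicate 1 was at 0 on both sides, and without it the groups did not overlap. Among 56 regions at genes that MLL fusions drive in leukaemia cells, 2 were higher and 2 lower. One inside Pbx3, the HOX cofactor, stood at 0, 7.45, 16.9 and 32.6 against 33.2, 39.2, 28.2 and 38.6 (20.6 points, standard error 7.13), with 1 AF9-experienced list below the highest naive list. Of 33 regions at chromatin regulators of leukaemia, 0 were past the unadjusted threshold in either direction, and the list median was 1.41 points. The start of Men1, the menin cofactor of MLL, ranked at 45.9, 74.8, 76.9 and 77.3 against 81.3, 74.7, 75.2 and 78.6, and the difference of 8.72 points rested on naive replicate 1: without both replicate 1 lists it was -0.162.

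Lineage lists showed few regions past an unadjusted p under 0.05. At equal length the myeloid progenitor (27 regions), neutrophil granule (8), monocyte (14), mature lymphocyte (9), megakaryocyte-erythroid (27), mast cell (8) and endothelial (14) lists had 0 in either direction, and lymphoid priming had 1 of 38, higher. That region, near Ccr9, reached the minimum of 3 lists only through AF9-experienced PBS lists, as 2 other lists ranked a peak there. Its p is therefore no test. The granule list had the lowest median, -5.58 points over 8 regions, and stood at 1.38 over 32 regions in the deeper fit, so its sign differed between depths. The endothelial list changed sign as well, from -1.43 to 0.0459 points. The start of Irf8, the factor of monocyte and dendritic cell fate, ranked at 36.6, 57.9, 59.7 and 55.4 in naive lists and at 64.9, 63.7, 63.1 and 60.3 in AF9-experienced lists (chr8:120735725-120736903, 10.6 points, standard error 5.70, and 3.53 points with the 50% overlap rule). All AF9-experienced lists were above all naive lists, narrowly so for replicates 2 to 4, and naive replicate 1 was far below the rest. The start of Epor, the erythropoietin receptor, stood at 31.7, 68.7, 69.3 and 67.5 against 71.0, 66.3, 71.3 and 74.8, where only naive replicate 1 was far from the rest.

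Inflammatory lists had medians of 0.508 points (interferon-stimulated genes, 37 regions), 0 (NF-kB and Toll-like receptor genes, 69), -0.658 (AP-1 and immediate early genes, 88) and 1.05 (IL6-STAT and emergency granulopoiesis, 60) at equal length. The interferon median was -0.185 points in the deeper fit. At an unadjusted p under 0.05 they had 1, 2, 1 and 2 regions higher and 0, 1, 3 and 1 lower. The region inside Bcl3, an atypical inhibitor of NF-kB that acts in the nucleus, ranked at 44.9, 40.6, 41.8 and 43.5 in naive lists and at 64.8, 51.9, 57.5 and 57.5 in AF9-experienced lists (chr7:19815914-19818031, 15.2 points, standard error 5.56). The naive lists lay within a narrow band and every AF9-experienced list above it, and in the deeper fit the difference was 4.37 points with a standard error of 1.56. It was 3.57 points ranked by fold enrichment and 8.34 in lists of 9550 peaks. The start of Stat2, which carries the interferon signal, ranked at 84.3, 83.3, 90.4 and 88.4 against 90.1, 94.2, 90.2 and 92.3 (5.12 points, standard error 2.27), and the groups overlapped. A region 2.46 kb from Nfkb1, the p50 subunit gene, was at 0, 1.40, 0 and 0 against 0, 20.2, 13.7 and 2.21. It is 1 of the 2 higher NF-kB regions, and 2 lists outside the AF9-experienced PBS group ranked a peak there. It reached the minimum of 3 lists only through that group, so its p is no test. A region 46.9 kb from Ier5, an immediate early gene, was at 0 in naive lists and at 44.6, 9.95, 5.94 and 14 in AF9-experienced lists. For antigen presentation, 0 of 27 regions passed in either direction; the start of H2-D1, a class I gene, had means of 72.2 and 77.8.

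Genes of proliferation, stress and the niche gave the following. Of 47 cell cycle regions, 0 were higher and 2 lower at an unadjusted p under 0.05, with a list median of -0.0249 points. In the deeper fit 1 of 98 was higher and 1 lower. The start of Mki67, the proliferation marker Ki-67, ranked at 88.2, 83.6, 81.3 and 80.1 in naive lists and at 72.4, 73.9, 73.9 and 77.0 in AF9-experienced lists (chr7:135715470-135716996, -8.99 points, standard error 3.15). The groups did not overlap, with naive replicate 4 and AF9-experienced replicate 4 nearest to each other. The difference was -2.15 points in the deeper fit and -22.2 ranked by fold enrichment (limma, unadjusted p = 0.123 for the latter). In lists of 9550 peaks it was -18.0, the same distance in places on a shorter ranking. Of 40 regions at genes of DNA damage and oxidative stress, 4 were higher and 0 lower, where all regions had 1.79% higher and 1.41% lower. One inside Foxo3, a factor that keeps stem cells quiescent, ranked at 0, 16.3, 0 and 14.9 against 48.0, 24.1, 31.4 and 26.5 (chr10:42220189-42221089, 24.7 points, standard error 7.80), again with no overlap. The other 3 were at Txnip, Gadd45a and Trp53.

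For niche retention and adhesion, 0 of 47 regions were higher and 2 lower at equal length, and 3 of 134 higher and 2 lower in the deeper fit. The list median went from 0.967 points at equal length to -0.00125 in the deeper fit. That of Wnt and Notch genes went from 0.259 to -0.162. The region at the end of Jam2, a junctional adhesion molecule, ranked at 26.3, 27.2, 25.3 and 22.8 against 30.4, 0, 0 and 0 (chr16:84773902-84775211, -17.8 points, standard error 7.24). AF9-experienced replicate 1 was the highest of all 8 lists and the other 3 had no peak at this length, though all 4 full lists held one. TGF-beta and BMP genes had 0 of 75 in either direction, and Wnt and Notch genes 2 higher, Maml3 and Notch2, and 0 lower of 68. Housekeeping genes had 0 of 16 in either direction and a median of 0.272 points. Even so the start of Tbp, the TATA-binding protein, ranked at 73.4, 63.2, 68.6 and 69.0 against 76.5, 76.8, 73.5 and 73.7, with no overlap and a difference of 6.52 points with a standard error of 3.38.

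**Figure D4:**
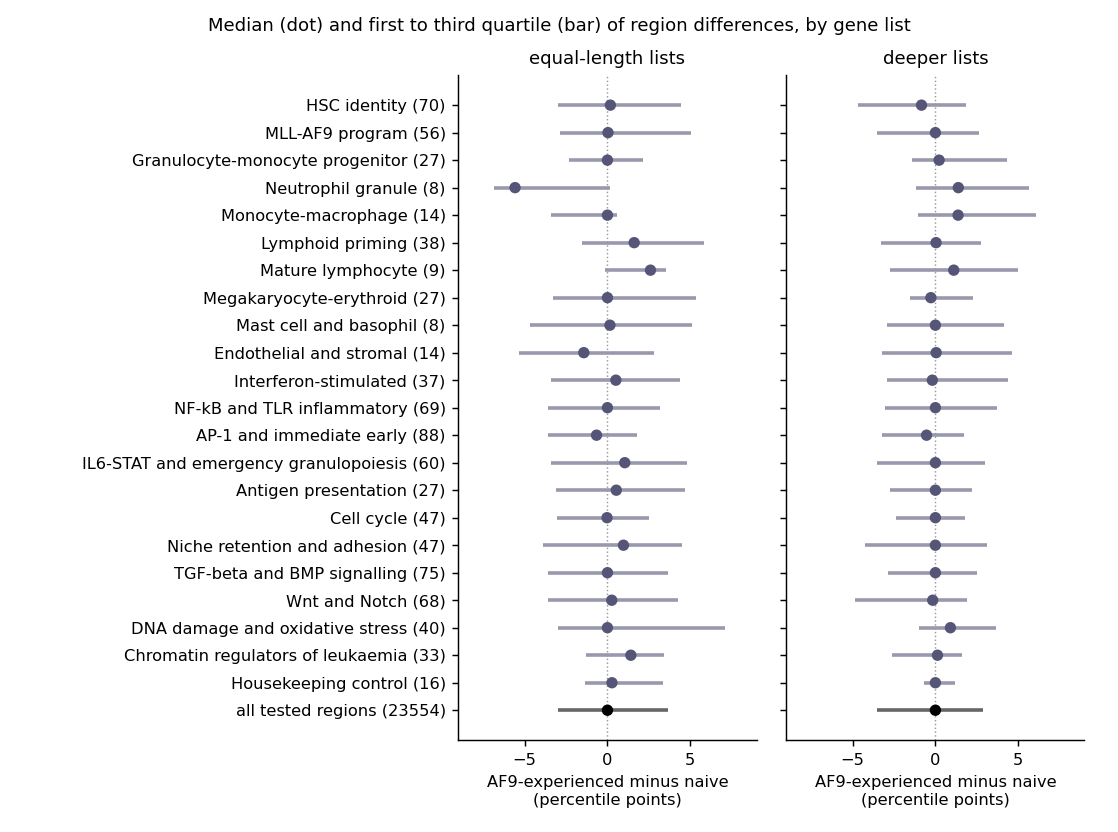
Median (dot) and range from the first to the third quartile (bar) of the differences in percentile points, AF9-experienced minus naive after PBS (horizontal axis), over the regions of each of 22 gene lists and over all tested regions, at equal length (left) and in the deeper lists (right); the number of equal-length regions stands in brackets. Medians lie between -5.58 and 2.60 on the left, every bar holds 0, and the medians of 6 lists change sign between the panels: HSC identity, interferon, Wnt and Notch, niche retention, endothelial and neutrophil granule.

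The strongest gene-end region was followed for 15 genes of stem cell identity, myeloid fate and inflammation, as a description. The start of Meis1 stood at 32.1, 36.0, 48.9 and 45.8 in naive lists and at 61.4, 50.4, 48.1 and 46.6 in AF9-experienced lists. The nearest end of Hoxa9 stood at 55.5, 49.98, 44.05 and 56.9 against 22.8, 44.3, 51.5 and 46.9. The start of Mecom was among the steadiest, from 68.6 to 76.6 in naive and from 71.3 to 75.2 in AF9-experienced lists. That of Hlf, a stem cell factor, ran from 55.3 to 73.6 and from 34.1 to 65.3, and that of Runx1 from 40.2 to 54.3 and from 32.1 to 47.0. The groups thus overlapped at every one of these starts.

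Among myeloid factors, the start of Cebpa ranked from 70.6 to 76.8 in naive and from 68.7 to 84.3 in AF9-experienced lists. The start of Cebpb, which drives emergency granulopoiesis, was at 0 in replicate 1 of both groups and between 50.4 and 57.4 in the other 6 lists. The end of Spi1 (PU.1) stood at 30.5, 57.7, 58.1 and 54.9 against 43.2, 60.1, 60.2 and 62.5, with replicate 1 lowest on both sides. The start of Flt3, the receptor of multipotent progenitors, was among the strongest regions, between 85.7 and 93.0 in all 8. For the inflammatory regulators, means were 72.1 ± 5.55 and 64.5 ± 4.79 at the start of Nfkbia, 66.1 ± 3.92 and 68.3 ± 3.71 at Socs3 and 69.3 ± 7.58 and 61.5 ± 5.50 at an end of Junb (SD, n = 4). The starts of Cd34 and Cxcr4, a progenitor antigen and the niche receptor, had means of 48.7 and 51.2, and of 55.1 and 51.5. Of these 15 regions, Irf8 was the 1 whose groups did not overlap.

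**Figure D5:**
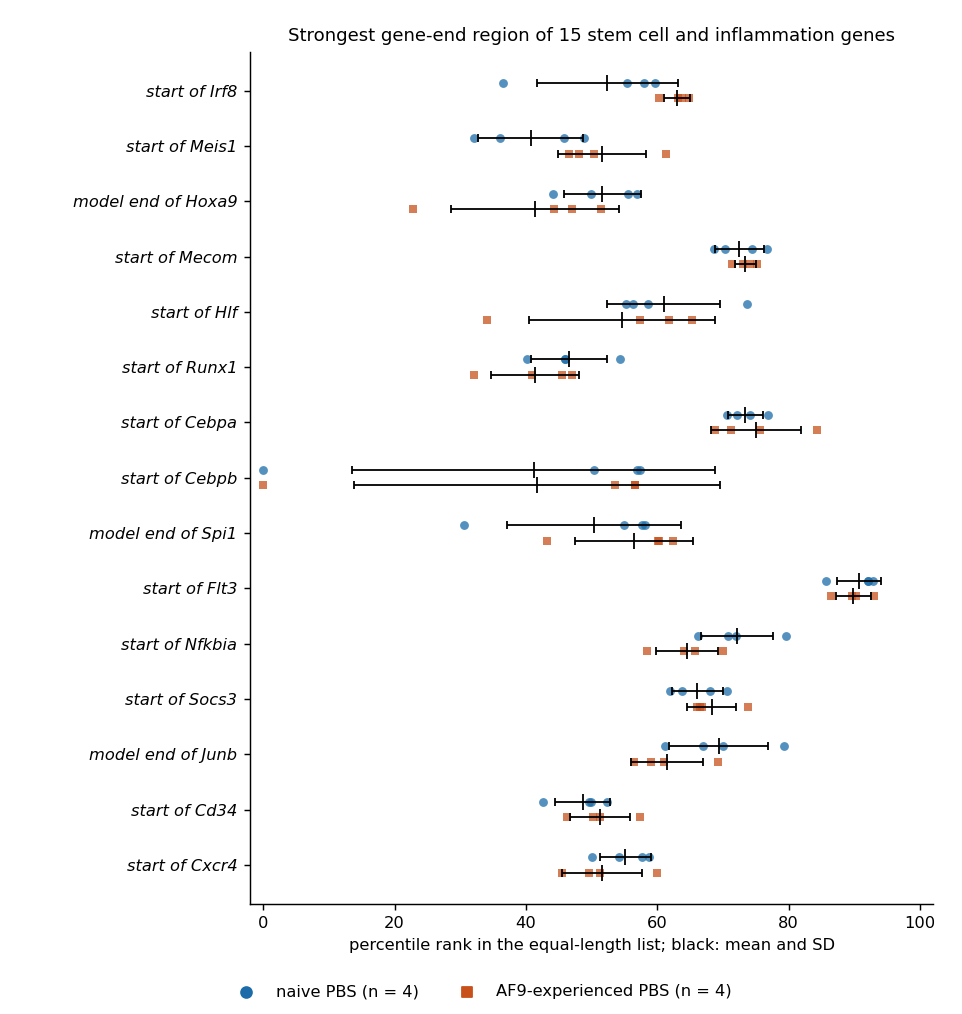
Percentile rank in the equal-length lists (horizontal axis) at the strongest gene-end region of 15 genes, 1 point per naive (circles) and AF9-experienced (squares) PBS list, with the mean and SD of 4 lists in black. Naive and AF9-experienced points overlap for every gene but Irf8, and the Cebpb points at 0 are replicate 1 of both groups. Over all tested regions, 1.05% had every AF9-experienced list above every naive list and 1.03% below.

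The difference after PBS was also set against the same contrast after LPS, which shares none of its lists. The test of the difference between the 2 contrasts called 0 of 23554 regions at equal length (0%), with a smallest adjusted p of 0.880 and 693 regions at an unadjusted p under 0.05, and it called 0 regions in the deeper fit (smallest adjusted p = 0.364). After LPS, 3 regions (0.0127%) were called, all lower in AF9-experienced lists. In the same fit the response to LPS called 758 regions in naive and 1221 in AF9-experienced HSPCs, so the fit made calls at these group sizes. The leading regions were picked by their PBS values, and their differences were smaller in size after LPS. Means at Nfic were 0 in naive LPS and 12.5 in AF9-experienced LPS lists. They were 0 and 0.593 near Vegfa, 0 and 0.531 inside Maml3 and 0 and 2.13 inside Trim9, where a naive mean of 0 leaves no room below. Inside Arntl they were 10.3 and 4.26, and at the start of Shisa8 9.92 and 3.03. For Atp2b1 the sign was the opposite, with means of 0 and 6.58. The start of Tdrd3 had 90.3 and 85.3, and its difference after LPS was -5.01 points with a standard error of 2.83. None of these differences between the contrasts passed the adjusted threshold.

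Values of whole lists did not separate the groups over all 4 replicates, by exact two-sided permutation tests in which 4 against 4 cannot go below 0.0286. The number of peaks averaged 60272 ± 28249 in naive and 71809 ± 30820 in AF9-experienced lists (SD, n = 4, exact p = 0.457, adjusted p = 0.880 over 7 measures). Median fold enrichment at equal length was 13.3 ± 5.72 and 15.5 ± 6.77 (SD, n = 4, exact p = 0.457). Without replicate 1 of either group, every AF9-experienced list had more peaks than every naive list, 87183 against 73880 at the mean. It also had a higher median fold enrichment (18.9 against 16.1), a shorter shortest peak (137 against 168 bp) and narrower listed peaks (392 against 490 bp). Each had an exact p of 0.1, the smallest that 3 against 3 allows, and an adjusted p of 0.140.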

How the data were processed

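ATAC-seq peak lists of sorted wild-type HSPCs were compared, 1 list per biological replicate, which the labels count as 2 technical libraries each. Per the submitters' processing notes the tools were FastQC, Trim Galore, BWA, Picard and MACS3, with no versions, on GRCm38. The authors' lists give each peak a fold enrichment, a ratio to the background of its own library. The authors also deposited its -log10 p and -log10 q, and filters on reads are not given in the sources used here. No depth is known.

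The top autosomal peaks of each list by -log10 p were kept (19100, or 59609 without the 3 shortest lists), and overlapping peaks were merged into 31846 or 107782 regions. Those held by 3 or more lists were fitted as percentile ranks with limma 3.58.1 (R 4.3.3, trend and robust options, 1 mean per group over all lists, LPS included), two-sided, Benjamini-Hochberg threshold 0.05. Whole-list values had exact permutation tests, adjusted over 7 measures. Scripts were tested on simulated data. Regions were linked to the nearest RefSeq protein-coding model (GRCm38.p6, no strand) within 50 kb, a link by position only; a start or end lies within 1 kb. Of 417 listed genes 414 matched and 334 had a region tested.

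Members, lists and the rule for named genes (the 4 regions with the smallest p in each direction of each fit where none was called, the leading region of each list, and 15 genes) were chosen with earlier results of these data known. The 200- and 300-bp thresholds, the sets held by 1 group alone, the start sequences and motifs were chosen after seeing the data. Results at a few genes are not reported here.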

Additional observations from a re-analysis of the deposited data

Results flagged for a closer look

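These values stood far from the other lists of their group of 4 by Dixon's criterion, which marks about 1 group in 20 by chance, so single marks carry little. Most belong to a replicate 1 list, the shortest in its group.

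In naive PBS replicate 1 the rank was 51.3 at the start of Shisa8, above its group, and 31.7 at Epor, 45.9 at Men1, 0 at Cebpb and 30.5 at Spi1, below it, and 32.2% of its equal-length peaks were under 200 bp. In AF9-experienced PBS replicate 1 the rank was 65.7 at the region near Ltf, 0 at Cebpb and 43.2 at Spi1, below its group, and 30.4 at Jam2, above it. That list held 25685 peaks, with an equal-length median width of 484 bp, 6.11% of peaks under 200 bp and a median fold enrichment of 5.34. Elsewhere, naive PBS replicate 3 was at 1.41 near Ccr2 and naive PBS replicate 2 at 1.40 near Nfkb1, each where the other 3 naive lists were at 0. Naive PBS replicate 4 was at 85.7 at the start of Flt3, below its group, and AF9-experienced PBS replicate 2 at 73.8 at the start of Socs3, above it. The part of the replicate 1 lists' low enrichment in these ranks was not tested.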

How the results depend on the processing

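At equal length 0 regions were called higher or lower in all settings run except 2. Limma's library weights, which set naive PBS replicate 1 to 0.234 and AF9-experienced PBS replicate 1 to 0.271, called 13 higher and 15 lower, among them the regions of Nfic, Tdrd3, Arntl, Shisa8, Mecom and Jam2. Presence in the full lists called 2 higher, 1 of them near Pnrc2; with no spread within any group and lists of unequal length, no p is given. In the deeper lists ranking by fold enrichment called 16 higher and 1 lower, a 50% overlap rule 36 and 135, fixed-width windows 16 and 1, the PBS lists alone 15 and 0, and library weights 92 and 47. The cause was not tested. Leaving out each list in turn gave 0 to 0 calls in both fits, and so did regions of at least 300 bp and, at equal length, leaving out both replicate 1 lists, alternatives added after seeing the data.

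With the replicate block, 0 regions were called in either direction in both fits. The labels do not say whether equal replicate numbers pair the samples, and the following correlations cannot settle it. Deviations of same-numbered lists correlated at 0.231, -0.182, 0.0457 and 0.180, and those of other-numbered lists at -0.265 to 0.241, a description across regions.

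Counts at an unadjusted p under 0.05 ran from 171 (lists of 9550 peaks) to 895 (library weights) higher and from 155 to 997 lower at equal length, and from 563 to 2678 and 630 to 3012 in the deeper lists. Groups without overlap numbered 81 (ranked by fold enrichment) to 1232 (both replicate 1 lists left out) above and 70 to 1402 below at equal length. They numbered 1890 to 7239 above and 2006 to 8280 below in the deeper lists. Fewer lists raise these counts by construction.

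Of 1042 values of named regions under other settings, 997 stayed on their side of the threshold or, at untested genes, moved by less than 1 SD, 28 newly passed it, 15 moved by more than 1 SD and 2 tested regions reversed: Men1 to -0.162 points without both replicate 1 lists, and Jam2 to a difference of 0.25 when scored as presence with a -log10 q threshold of 5. At 8 of the genes given as a description the sign changed too, in 22 values. Cd34 went from 2.59 to -3.67 points ranked by fold enrichment, and Flt3 from -0.838 to 22.4 with the 50% overlap rule. Hlf went from -6.34 to 2.33 with library weights, and without naive PBS replicate 1 Cebpb went from 0.524 to -13.2 and Spi1 from 6.18 to -0.405. Cebpa, Socs3 and the start of Mecom changed sign at differences under 3 points. In 64 of the 1042 the difference was exactly 0, 63 of them as presence, and has no direction. Median width at equal length turned to 0.5 bp (AF9-experienced minus naive) at 9550 peaks, and the share of peaks under 200 bp to 0.173 percentage points without both replicate 1 lists. Ranks hold no depth, and at equal length the 95% interval of the median region reached 13.3 points to either side.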
